A study of Mus musculus with 12 samples.

Results

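The genes described here are 9 C-type lectin receptor genes of mouse macrophages: Clec4e, Clec4d, Clec4n, Clec7a, Clec5a, Clec12a, Clec10a, Mrc1 and Cd302. They were taken by name from the 24675 genes with a symbol on the array, each measured by 1 probe set. The rule for membership is a list of names and uses no measured value, but the list was drawn up with earlier results of these data known, so the shares of all genes given beside its counts are a background and no test. The cells were bone marrow-derived macrophages, grown from the femur and tibia marrow of wild-type mice aged 8 to 10 weeks in L cell-conditioned medium, a source of the growth factor M-CSF, for 7 days. They were then replated, moved to DMEM alone for 1 h and given hepcidin, the liver peptide hormone that controls iron export through ferroportin, or PBS alone. RNA was taken after 1 h or 3 h, which gives 4 groups of 3 arrays: PBS 1 h, hepcidin 1 h, PBS 3 h and hepcidin 3 h. The labels give the same culture, with the move to DMEM alone, for all groups, the PBS arrays included. The labels give the hepcidin dose once as 1 µg/ml and once as 10 µg/ml, the second in a text that names the 1 h treatment alone, so the dose is not settled here. The strain and sex of the mice are not given in the labels, nor whether the 3 arrays of a group came from separate mice or cultures, so the p-values here speak of the spread among these arrays, and that spread may be technical.

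C-type lectin receptors are membrane proteins with a lectin-like fold that bind sugars, lipids and debris of microbes or damaged cells. Some carry or recruit an activating tyrosine motif: Clec4e (Mincle), Clec4d (MCL) and Clec4n (Dectin-2) work through the adaptor Fcer1g, Clec7a (Dectin-1, the beta-glucan receptor) through a motif in its own tail, and Clec5a (MDL-1) through the adaptor Tyrobp. These feed the kinase Syk and, through Card9, Bcl10 and Malt1, NF-kB. Clec12a carries an inhibitory motif, while Mrc1 (the mannose receptor), Clec10a (a galactose-type lectin) and Cd302 are known mainly as endocytic or adhesive receptors. Mrc1 and Clec10a are often used as marks of alternatively activated macrophages, and Clec4e is known to be induced when macrophages meet inflammatory stimuli.

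Values are the deposited log2 expression values, so a difference of 1 is a change by a factor of 2. Array medians ran from 4.84 to 4.94, and pairs of arrays of the same group correlated at 0.994 to 0.997 over all genes. Of the 16 macrophage markers listed, 14 were tested, and all of these lay above the median gene. Their mean per array ran from 10.7 to 10.9 in every group. Markers of dendritic cells, neutrophils and their precursors, lymphocytes and fibroblasts included none that passed limma's test at 1 h or at 3 h (16, 16, 14 and 13 tested). Without adjustment, at a p under 0.05, these lists held 3, 1, 1 and 0 genes at 1 h and 5, 4, 0 and 1 at 3 h, in either direction, against 6.82% and 16.9% of all genes. The part of such markers in the receptor results was not tested. In such bulk samples a change in RNA per cell and a change in the share of cells that express a gene cannot be told apart. A gene is said to have risen or fallen where limma's adjusted p, by Benjamini and Hochberg over all 24675 genes, was under 0.05. Errors of differences are limma's moderated standard errors (SE), with 95% intervals.

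Of the 9 genes, 7 were matched in the RefSeq promoter table (build GRCm38.p6), and the 250 bases before the start are shown for 4 of them: Clec4e and Clec5a, which rose after hepcidin at both times, and Clec7a and Mrc1, which fell at 3 h. Capitals mark matches to 5 searched motifs: C/EBP (TTGCNNAA), AP-1 (TGANTCA), the PU.1 core (GAGGAA) and the NF-kB consensus on both strands, and TATAAA on the gene's strand only. The sequences run from 5′ to 3′ on the strand of the gene and end at the base before its start. They lie at chr6:123289872-123290121 on the minus strand for Clec4e, chr6:40585806-40586055 on the minus strand for Clec5a, chr6:129472780-129473029 on the minus strand for Clec7a, and chr2:14229164-14229413 on the plus strand for Mrc1. For Clec7a the table lists 2 starts, and the first is used.
Clec4e: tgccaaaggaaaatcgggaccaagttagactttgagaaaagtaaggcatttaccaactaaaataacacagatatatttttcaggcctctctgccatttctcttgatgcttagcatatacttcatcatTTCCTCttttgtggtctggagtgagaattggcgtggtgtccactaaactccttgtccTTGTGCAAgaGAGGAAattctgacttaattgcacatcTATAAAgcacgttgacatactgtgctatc
Clec5a: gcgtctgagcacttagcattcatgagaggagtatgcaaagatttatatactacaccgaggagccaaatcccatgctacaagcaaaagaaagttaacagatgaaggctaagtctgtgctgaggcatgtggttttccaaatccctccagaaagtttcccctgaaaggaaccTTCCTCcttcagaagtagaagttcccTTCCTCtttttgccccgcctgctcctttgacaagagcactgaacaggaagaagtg
Clec7a: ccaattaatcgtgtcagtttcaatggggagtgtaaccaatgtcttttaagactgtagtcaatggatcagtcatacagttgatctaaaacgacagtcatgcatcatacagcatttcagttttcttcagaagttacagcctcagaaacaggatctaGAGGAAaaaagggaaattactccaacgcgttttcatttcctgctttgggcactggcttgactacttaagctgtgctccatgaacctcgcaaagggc
Mrc1: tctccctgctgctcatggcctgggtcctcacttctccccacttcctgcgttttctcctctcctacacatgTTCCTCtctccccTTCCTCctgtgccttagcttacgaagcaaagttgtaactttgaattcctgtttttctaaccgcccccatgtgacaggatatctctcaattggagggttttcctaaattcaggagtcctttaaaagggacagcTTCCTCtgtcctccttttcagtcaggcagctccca
The Clec4e sequence holds a TATAAA that begins 29 bases before the start, a C/EBP match at 66 bases, and PU.1 cores at 56 and 123 bases. None of these overlap. Among the 7 matched receptor genes it was the only one with TATAAA, against 8.12% of all 27025 promoters searched. C/EBP matches stood in 3 of the 7 (Clec4e, Clec12a and Cd302) and in 9.55% of all promoters. The PU.1 core stood in 6 of the 7, all but Cd302, and in 23.1% of all promoters. It lies at 55 and 81 bases in Clec5a, at 96 bases in Clec7a, and at 35, 167 and 180 bases in Mrc1. AP-1 letters were found in Clec12a alone of the 7 (6.87% of all promoters), and the NF-kB consensus in none of the 7 (3.75%). A match here is a match of letters in this window and was not tied to binding.

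After 1 h of hepcidin 2 of the 9 genes rose, Clec4e and Clec5a, and none fell, where 0.559% of all genes passed the test, 0.527% as rises and 0.0324% as falls. Without adjustment, at a p under 0.05 by limma, 3 were higher and 0 lower at 1 h, the added gene being Cd302, and 5 were higher and 2 lower at 3 h, where 6.82% and 16.9% of all genes passed that looser threshold. After 3 h 4 rose (Clec4e, Clec5a, Clec4d and Cd302), 2 fell (Clec7a and Mrc1) and 3 did not pass (Clec4n, Clec12a and Clec10a), where 5.33% of all genes passed, 2.8% as rises and 2.53% as falls. Of the 9, all but Clec10a had a mean above the median gene, while the shares of all genes include the dimmer genes. The median of the 9 differences at 3 h was 0.30, against 0.016 over all genes. Their median size, sign set aside, was 0.35 against 0.098. At 1 h the median difference was 0.00053, against -0.0022 over all genes. The classes of receptor did not each move in one direction: of the 5 activating receptors, 3 rose, 1 fell and 1 did not pass at 3 h, and of the 3 endocytic ones 1 rose, 1 fell and 1 did not pass.

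**Figure D1:**
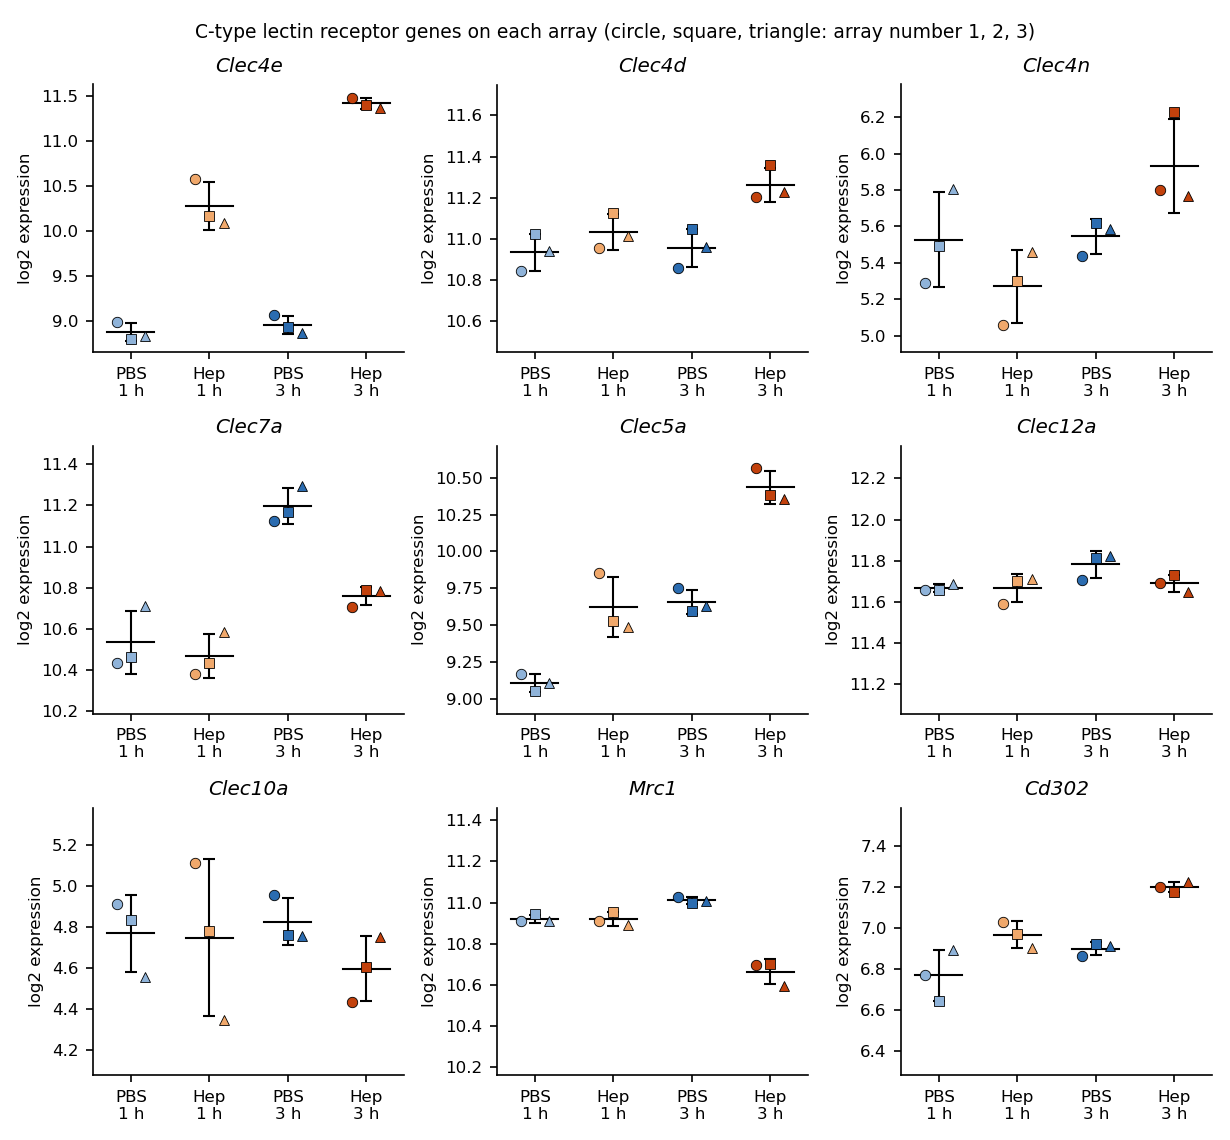
Log2 expression of the 9 receptor genes on each of the 12 arrays (circle, square and triangle for array numbers 1, 2 and 3), with the group mean and SD (n = 3). The vertical scale differs between panels and never spans less than a fixed range. Clec4e and Clec5a climb with hepcidin at both times, Clec7a climbs with time in PBS, and Mrc1 is lower in the hepcidin 3 h arrays alone.

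Clec4e encodes Mincle, which binds mycobacterial glycolipids and a protein released by dying cells. Its values were 8.98, 8.80 and 8.83 in PBS at 1 h and 10.58, 10.17 and 10.09 with hepcidin at 1 h. At 3 h they were 9.07, 8.94 and 8.87 in PBS and 11.48, 11.41 and 11.37 with hepcidin. The PBS arrays of both times overlap, every hepcidin array lies above them all, and the hepcidin 3 h arrays lie above the hepcidin 1 h arrays. The group means were 8.87 ± 0.099 and 10.28 ± 0.27 at 1 h and 8.96 ± 0.10 and 11.42 ± 0.056 at 3 h (SD, n = 3). At 1 h the level of Clec4e rose by 1.41 (SE 0.11), or 2.65-fold, with an adjusted p of 2.39e-05 by limma. At 3 h it rose by 2.46 (SE 0.11, interval 2.21 to 2.71), or 5.52-fold, with an adjusted p of 1e-07 by limma, the 15th largest rise among all genes. The effect at 3 h exceeded that at 1 h by 1.06 (SE 0.16, interval 0.70 to 1.41, adjusted p 0.00932 by limma), and it was the only one of the 9 genes for which that difference passed, where 1.03% of all genes did. In PBS the level differed by 0.09 between the times (adjusted p 0.895 by limma). The promoter shown above for Clec4e is the one with both TATAAA and a C/EBP match.

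Clec4d encodes MCL, which pairs with Mincle, and is the gene next to Clec4e. Its 12 values stayed between 10.84 and 11.36. In PBS they were 10.84, 11.02 and 10.94 at 1 h and 10.86, 11.05 and 10.96 at 3 h. With hepcidin they were 10.96, 11.13 and 11.01 at 1 h and 11.20, 11.36 and 11.23 at 3 h. Array 1 was the lowest and array 2 the highest in all 4 groups, and the hepcidin 3 h arrays lie above all others. Its difference at 1 h was 0.10 (adjusted p 0.908 by limma). At 3 h Clec4d rose by 0.31 (SE 0.08, interval 0.13 to 0.48), or 1.24-fold, with an adjusted p of 0.0441 by limma. That call was lost in 12 of 20 alternative settings, 9 of which left out a single array, with adjusted p from 0.00722 to 0.152 over all 20. The rise of Clec4d was thus smaller than that of its neighbour Clec4e on the log2 scale, and that gap was not tested.

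Clec4n encodes Dectin-2, a receptor for fungal mannans that lies on the other side of Clec4d. Its probe set read 5.29, 5.49 and 5.80 in PBS at 1 h, 5.06, 5.30 and 5.46 with hepcidin at 1 h, 5.44, 5.62 and 5.58 in PBS at 3 h, and 5.80, 6.23 and 5.76 with hepcidin at 3 h. These values lie near the array medians, where background makes up part of the signal, so no fold is given. The differences were -0.25 at 1 h (adjusted p 0.834) and 0.38 at 3 h (SE 0.15, adjusted p 0.208), neither past limma's threshold, although the arrays at 3 h do not overlap. Between the hepcidin groups Clec4n rose by 0.66 from 1 h to 3 h (SE 0.15, adjusted p 0.0265 by limma), a call lost in 5 of 20 alternatives.

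Clec7a encodes Dectin-1, which binds fungal beta-glucans and drives their uptake. It read 10.43, 10.46 and 10.71 in PBS at 1 h and 10.38, 10.43 and 10.59 with hepcidin at 1 h. At 3 h it read 11.13, 11.17 and 11.29 in PBS and 10.71, 10.79 and 10.78 with hepcidin. The PBS 3 h arrays stand above all the others, and the hepcidin 3 h arrays lie between them and the 1 h arrays, meeting the highest PBS 1 h array. The groups overlapped at 1 h, with a difference of -0.07 (interval -0.26 to 0.12, adjusted p 0.955 by limma). At 3 h Clec7a fell by 0.44 (SE 0.09, interval -0.63 to -0.24), a level 1.35-fold lower, with an adjusted p of 0.0109 by limma. Without PBS 3 h replicate 3 that adjusted p was 0.0591. In PBS alone Clec7a rose by 0.66 from 1 h to 3 h (SE 0.09), or 1.58-fold (adjusted p 0.00913 by limma), the 18th largest rise in that comparison, in which 2 of the 9 genes and 0.45% of all genes passed. With hepcidin the step from 1 h to 3 h was 0.29 (adjusted p 0.0895 by limma), which passed with the replicate number as a block (0.0247), with a trended and robust prior (0.0265) and among genes above the median (0.0409). The lower value at 3 h was thus measured against a control that had itself risen, and the hepcidin 3 h mean of 10.76 was above both 1 h means, 10.53 and 10.47. The difference between the effects at 3 h and 1 h was -0.37 (interval -0.64 to -0.10), which did not pass (adjusted p 0.284 by limma). The rise in PBS lost its call without PBS 1 h replicate 2 (0.0519), without PBS 3 h replicate 3 (0.053) and in a limma fit of the compared groups alone (0.059).

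Clec5a encodes MDL-1, a receptor best known for flavivirus binding and for work with Tyrobp in myeloid cells. Its values were 9.17, 9.05 and 9.11 in PBS at 1 h and 9.85, 9.52 and 9.49 with hepcidin at 1 h. At 3 h they were 9.75, 9.59 and 9.63 in PBS and 10.57, 10.38 and 10.36 with hepcidin. Clec5a therefore climbed in PBS as well: the PBS 3 h arrays overlap the hepcidin 1 h arrays, the PBS 1 h arrays lie below both, and the hepcidin 3 h arrays above. At 1 h it rose by 0.51 (SE 0.10), or 1.43-fold, with an adjusted p of 0.0458 by limma, a call lost in 12 of 20 alternatives. Without hepcidin 1 h replicate 1, the highest of its group for Clec5a and for Clec4e, the difference was 0.40 (adjusted p 0.111). At 3 h Clec5a rose by 0.78 (SE 0.10, interval 0.56 to 1.00), or 1.72-fold, with an adjusted p of 0.00041 by limma, which all 20 alternatives kept. In PBS it rose by 0.55 (SE 0.10) from 1 h to 3 h, or 1.46-fold (adjusted p 0.0383 by limma, lost in 11 of 20 alternatives), and with hepcidin by 0.81 (adjusted p 0.000405). The effects at 3 h and 1 h differed by 0.27 (interval -0.04 to 0.58, adjusted p 0.576 by limma).

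Clec12a, the inhibitory receptor of the set, which binds uric acid crystals, showed no change past the test. It read 11.66, 11.66 and 11.69 in PBS and 11.59, 11.70 and 11.71 with hepcidin at 1 h, and 11.71, 11.82 and 11.82 in PBS and 11.69, 11.73 and 11.65 with hepcidin at 3 h. The groups overlap at both times. The differences were 0.00 at 1 h (interval -0.14 to 0.14) and -0.09 at 3 h (interval -0.23 to 0.05), with adjusted p of 0.999 and 0.532 by limma.

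Mrc1, the mannose receptor that clears glycoproteins by endocytosis, differed from PBS at 3 h and not at 1 h. It read 10.91, 10.94 and 10.91 in PBS and 10.91, 10.95 and 10.89 with hepcidin at 1 h, and 11.03, 11.00 and 11.01 in PBS and 10.70, 10.70 and 10.60 with hepcidin at 3 h. The hepcidin 3 h arrays lie below all 9 others, which cover a range from 10.89 to 11.03. After 1 h the difference was -0.003 (interval -0.13 to 0.13, adjusted p 0.998 by limma). At 3 h Mrc1 fell by 0.35 (SE 0.06, interval -0.47 to -0.22), a level 1.27-fold lower (adjusted p 0.00366 by limma), kept in all 20 alternatives. Between the hepcidin groups it fell by 0.25 (adjusted p 0.0277 by limma, lost in 5 of 20 alternatives). The effects at 3 h and 1 h differed by -0.34 (SE 0.08), which did not pass (adjusted p 0.0952 by limma), and passed with a trended and robust prior (0.00491), without moderation of the variances (0.014) and among genes above the median (0.0244).

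Cd302, a lectin tied to endocytosis and cell adhesion, read 6.77, 6.65 and 6.89 in PBS and 7.03, 6.97 and 6.90 with hepcidin at 1 h, and 6.86, 6.92 and 6.91 in PBS and 7.20, 7.17 and 7.22 with hepcidin at 3 h. The hepcidin arrays lie above the PBS arrays at each time, at 1 h by a narrow margin. The difference at 1 h was 0.20 (adjusted p 0.592 by limma). At 3 h Cd302 rose by 0.30 (SE 0.07, interval 0.14 to 0.46), or 1.23-fold, with an adjusted p of 0.0299 by limma, lost in 8 of 20 alternatives. Clec10a, a lectin for galactose-type sugars, had values between 4.35 and 5.11 on all 12 arrays, at the level of the array medians. Its differences were -0.02 at 1 h and -0.23 at 3 h (interval -0.59 to 0.13, adjusted p 0.549 by limma), with no fold given at this level. Counted over the set, the hepcidin and PBS arrays did not overlap for 3 of the 9 genes at 1 h, against 12.3% of all genes. At 3 h they did not overlap for 8, all but Clec12a, against 21.7% of all genes. For Clec10a that margin was narrow, with a lowest PBS value of 4.756 and a highest hepcidin value of 4.750 at 3 h.

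**Figure D2:**
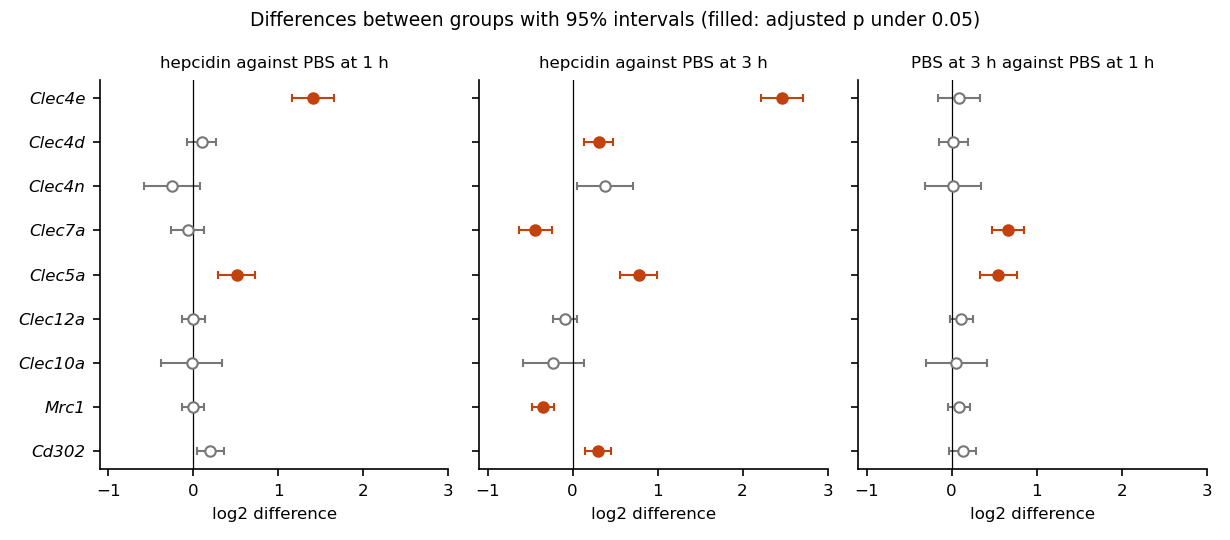
Log2 differences with 95% intervals for the 9 receptor genes, in 3 panels: hepcidin against PBS after 1 h, the same after 3 h, and the later PBS group against the earlier. Filled points passed limma's adjusted p under 0.05: 2 after 1 h, 6 after 3 h, and 2 over time in PBS, where Clec7a stands to the right of 0 while it stands to the left at 3 h of hepcidin.

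From 1 h to 3 h in PBS, Clec7a and Clec5a rose and none of the other 7 passed. At 3 h the hepcidin arrays stood above PBS for Clec5a and below PBS for Clec7a. In hepcidin-treated cells 3 genes rose from 1 h to 3 h (Clec4e, Clec5a and Clec4n) and Mrc1 fell, where 5.05% of all genes passed. Each hepcidin comparison shares arrays with the comparisons over time, so these values stand side by side and not as separate evidence.

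Of the 9 genes, 6 lie on chromosome 6, and 5 of these in 2 lectin clusters. In the order of protein-coding genes in the RefSeq table, Clec4n, Clec4d and Clec4e end a run that begins with Clec4a1, Clec4a3, Clec4a4, Clec4b1, Clec4a2 and Clec4b2. The first and last gene of each run were chosen by name, so their place at an end is no finding. Of the 9 genes in this run, 1 rose at 1 h (Clec4e) and 3 at 3 h: Clec4e, its neighbour Clec4d, and Clec4a1. Clec4a1 rose by 0.75 (SE 0.08), or 1.68-fold (adjusted p 0.000109 by limma), from 10.01, 10.16 and 10.07 in PBS to 10.79, 10.95 and 10.76 with hepcidin at 3 h. Of the others, 3 genes, Clec4a4, Clec4b1 and Clec4b2, lay below the median gene. Clec4a3 and Clec4a2 lay above it and did not pass at 3 h (0.05 and 0.41, adjusted p 0.864 and 0.113 by limma). The members of the Clec4a and Clec4b group are close relatives in sequence, and whether probes cross-react between them was not tested.

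Clec12a and Clec7a lie in the second cluster, the run Cd69, Clec2m, Clec12a, Clec12b, Clec1b, Clec9a, Clec1a, Clec7a and Olr1. Here 5 of the 9 genes lay below the median gene. Cd69, an early activation antigen, rose by 2.96 (SE 0.17) at 1 h and by 2.92 (SE 0.17) at 3 h, with adjusted p of 1.27e-06 and 5.97e-07 by limma. Its PBS means, 4.97 at 1 h and 5.04 at 3 h, lie at the array medians, where background makes up part of the signal, so these differences are no measure of fold. Olr1, the receptor for oxidized LDL and the gene next to Clec7a, read 4.37, 4.36 and 4.29 in PBS and 5.63, 6.19 and 6.56 with hepcidin at 3 h. The difference for Olr1 was 1.78 (SE 0.20, adjusted p 0.000122 by limma), from a PBS level under the array medians, so it is no measure of fold. Against PBS at 3 h the neighbours Olr1 and Clec7a thus differed in opposite directions, and at 1 h neither passed. From 1 h to 3 h with hepcidin both were higher. Olr1 rose by 1.19 (adjusted p 0.00351 by limma), and Clec7a differed by 0.29 (adjusted p 0.0895 by limma), which did not pass.

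**Figure D3:**
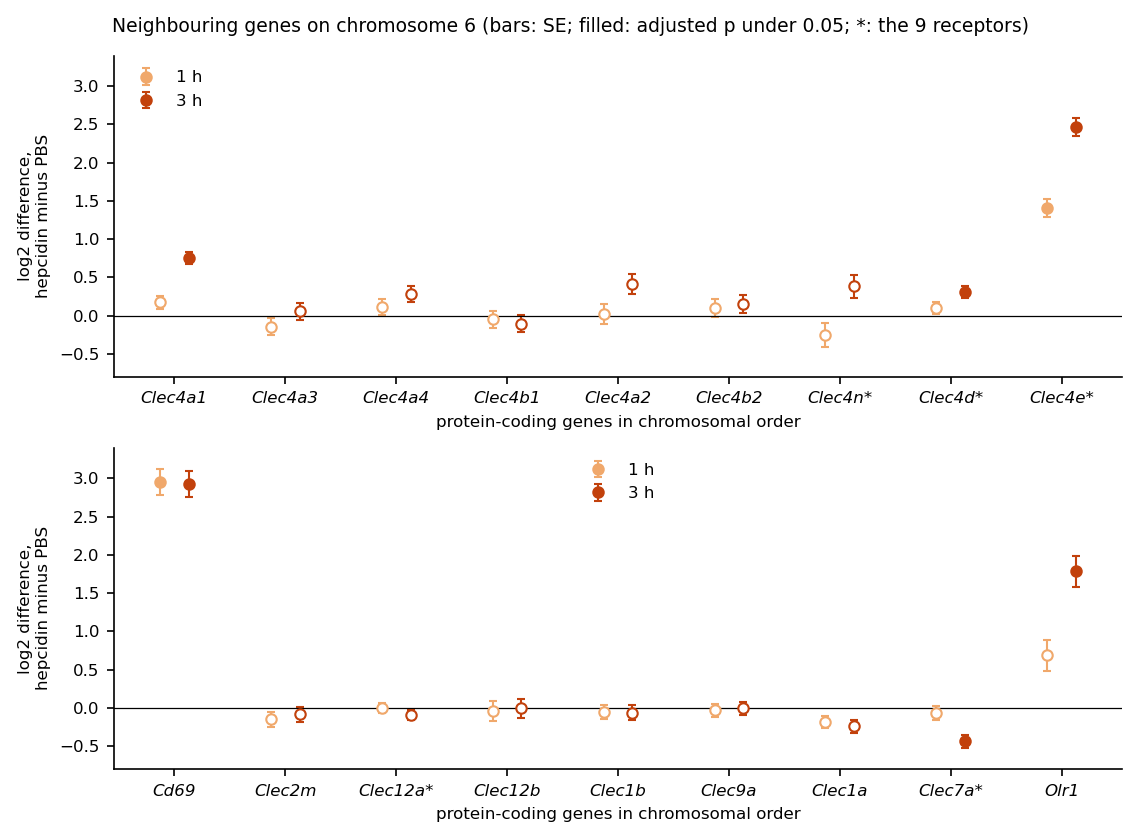
Log2 differences (hepcidin minus PBS, with SE) at 1 h and 3 h for the genes of the 2 clusters on chromosome 6, in gene order and not to scale. Filled points passed limma's adjusted p under 0.05, and an asterisk marks the receptors described here. The called genes are Clec4a1, Clec4d, Clec4e, Cd69, Clec7a and Olr1. The end genes of each run were chosen by name, so a place at an end is no finding.

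Genes at or downstream of these receptors were followed with a list of 49. It holds adaptors, kinases, phosphatases and NF-kB and NFAT genes, and others such as Nlrp3 and Egr3. Of the 49, 41 were tested and 8 are not analysed here. At 1 h 4 rose and none fell (9.76% of those tested, against 0.559% of all genes). At 3 h 11 rose, 4 fell and 26 did not pass (36.6%, against 5.33% of all genes), and in PBS over time none passed (0.45% of all genes). Without adjustment, at a p under 0.05 by limma, 8 of the list were higher and 2 lower at 1 h (24.4%). At 3 h 13 were higher and 8 lower (51.2%), and over time in PBS 4 were higher and 3 lower (17.1%). Of all genes, 6.82% passed that threshold at 1 h, 16.9% at 3 h and 10.6% over time in PBS. The median difference of the 41 at 3 h was 0.05, against 0.016 over all genes. All 41 had a mean above the median gene, although some, such as Egr3 (5.03), Fgr (5.49), Hcst (5.67) and Src (5.80), lay near the array medians. The shares of all genes include the dimmer genes, so they are no like-for-like background. This list and those below were drawn up with earlier results of these data known, so the shares are no test. The fit limited to genes above the median mean held 12329 genes beside the receptors. In it 165 genes passed at 1 h and 1727 at 3 h, against 138 and 1316 of all 24675.

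The adaptors of the receptors did not pass at either time. Fcer1g, the adaptor of Clec4e, Clec4d and Clec4n, read 12.72, 12.77 and 12.75 in PBS and 12.69, 12.69 and 12.57 with hepcidin at 3 h, a difference of -0.10 (SE 0.06, adjusted p 0.485 by limma). Tyrobp, the adaptor of Clec5a, differed by 0.21 at 3 h (SE 0.11, adjusted p 0.353 by limma) with overlapping arrays. Syk, the kinase downstream of both, read 8.90, 9.06 and 9.15 in PBS and 9.70, 9.76 and 9.87 with hepcidin at 3 h. Syk rose by 0.74 (SE 0.09) at 3 h, or 1.67-fold (adjusted p 0.00031 by limma), after 0.04 at 1 h (adjusted p 0.985). In the complex below Syk, Malt1 rose by 0.74 (SE 0.09) and Bcl10 by 0.48 (SE 0.07) at 3 h, with adjusted p of 0.000371 and 0.00167 by limma, while Card9 differed by -0.08 (SE 0.07, adjusted p 0.669). These 6 genes were chosen for naming after their values were seen.

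By the rule for named genes, the 4 largest rises of the list at 3 h were in Nlrp3, the sensor of an inflammasome, and the NF-kB subunit genes Nfkb2, Relb and Rel. Nlrp3 read 6.80, 6.64 and 6.70 in PBS and 8.58, 8.88 and 8.96 with hepcidin at 3 h, a rise of 2.09 (SE 0.13, adjusted p 9.78e-07 by limma) after 1.43 at 1 h. Nfkb2 rose by 0.98 at 1 h and 1.71 at 3 h, Relb by 0.87 and 1.45, and Rel by 0.61 and 0.85, all past limma's threshold. These were also the 4 rises at 1 h, so no adaptor or kinase of the list passed at that time. The other rises at 3 h were in the Src-family kinases Fgr (0.75) and Src (0.35), the NF-kB subunit Rela (0.37) and the kinase Prkcd (0.29).

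The 4 genes of the list that fell at 3 h were the ubiquitin ligase Cblb, the inositol phosphatase Inpp5d (SHIP1), the transcription factor Nfatc1 and the lipid kinase subunit Pik3cd. Inpp5d read 9.55, 9.64 and 9.57 in PBS and 9.01, 9.07 and 9.07 with hepcidin at 3 h, and fell by 0.54 (SE 0.06, adjusted p 0.000123 by limma), after a difference of 0.01 at 1 h. Cblb fell by 0.58 (SE 0.08, adjusted p 0.000482) and Nfatc1 by 0.49 (SE 0.07, adjusted p 0.00128). Pik3cd fell by 0.28 (adjusted p 0.0408 by limma), a call lost in 13 of 20 alternatives. Cblb and Inpp5d are known as brakes on Syk signalling. In the same list the ubiquitin ligase Cbl and the phosphatases Ptpn6 and Ptpn11 did not pass at 3 h. Their differences were 0.23, 0.14 and 0.14, with adjusted p of 0.0825, 0.402 and 0.3 by limma. Whether any of these bear on Syk signalling here was not tested.

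**Figure D4:**
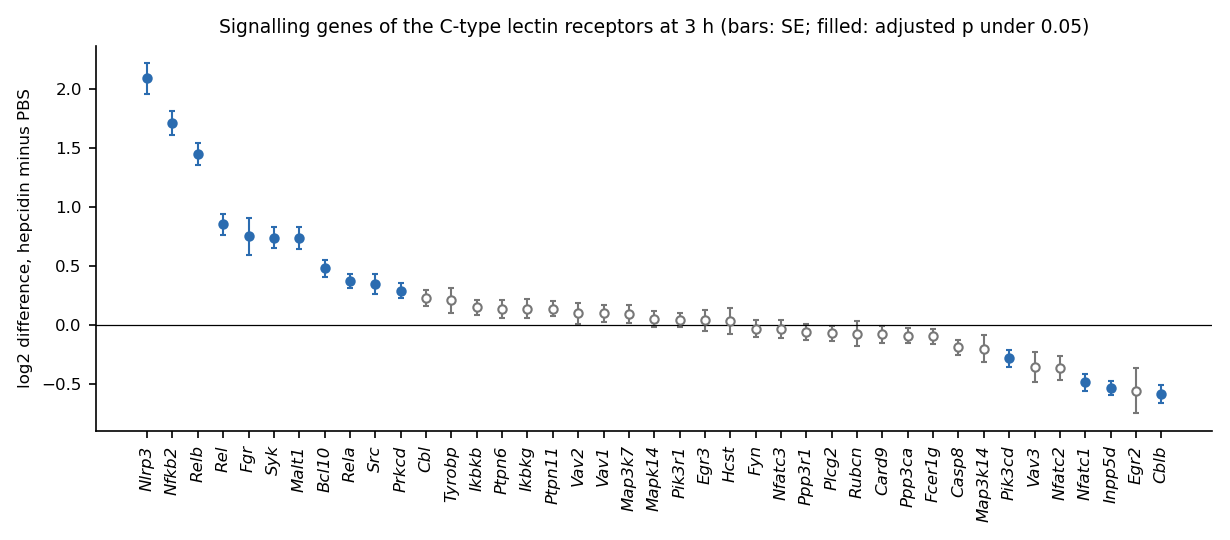
Log2 differences (hepcidin minus PBS at 3 h, with SE) of the 41 signalling genes tested, ordered by size. Filled points passed limma's adjusted p under 0.05: 11 rises from Nlrp3 down to Prkcd, and 4 falls, Pik3cd, Nfatc1, Inpp5d and Cblb. Fcer1g, Tyrobp and Card9 stand among the 26 open points.

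Of 68 other C-type lectin genes, 67 were tested, and only 17 of them lay above the median gene, against 8 of the 9 receptors described here. At 1 h 1 rose, Cd69 (1.49%, against 0.559% of all genes). At 3 h 5 rose and 1 fell (8.96%, against 5.33% of all genes): Cd69, Olr1, Clec4a1, Klra2 (0.67, adjusted p 0.0292), Ly75 (0.52, adjusted p 0.0226), which stands outside the rule for names, and Thbd, thrombomodulin (-0.46, adjusted p 0.0351), all by limma. The calls of Klra2 and Thbd were lost in 6 and 10 of 20 alternatives. Of 25 other phagocytic and pattern receptors, 2 rose at 1 h, Tlr2 and Nod2 (8%, against 0.559% of all genes), and 5 rose and 1 fell at 3 h (24%, against 5.33%). Of these 25, 23 lay above the median gene. The call of Nod2 at 1 h was lost in 4 of 20 alternatives. Its PBS means, 5.37 at 1 h and 5.56 at 3 h, lie near the array medians, so its differences are no measure of fold. Tlr2, a receptor for bacterial lipoproteins, rose by 2.06 (SE 0.12) at 3 h, its partner Tlr1 by 1.09 (SE 0.07) and the peptidoglycan sensor Nod2 by 1.07 (SE 0.15), while Tlr4, the LPS receptor, fell by 0.42 (SE 0.06, adjusted p 0.0015 by limma). The other rises were in Cd14 (0.80) and Fcgr2b (0.43). Among the 14 macrophage markers Cd14 and Spi1 (0.30), which encodes PU.1, rose at 3 h and Mertk (-1.08) fell, and the rest did not pass. The part of such shifts in the receptor results was not tested.

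For 5 of the receptor genes, the genes with the most similar pattern were sought by Pearson's r over the 12 arrays, among 12329 genes above the median gene. The arrays fall into 4 groups, so r here mostly orders genes by how their group means run, and it is given as a measure of likeness alone. Closest to Clec4e were Gpr84 (0.992), Acod1 (0.992), Icam1 (0.991) and Ehd1 (0.990), which rose at 3 h by 4.29, 5.94, 2.56 and 2.01. Closest to Clec5a were Rnd3 (0.980), Cybb (0.977), Adam17 (0.972) and Samd4b (0.971), with rises at 3 h of 0.94, 0.32, 0.46 and 0.42. Closest to Clec4d were Stx6 (0.959), Saa3 (0.957), Hacd3 (0.945) and Ccl5 (0.941). Of these, Saa3 rose by 2.04 at 3 h and the rest by 0.40, 0.40 and 0.95 for Stx6, Hacd3 and Ccl5. The pattern of Mrc1 was nearest to that of Helb (0.995), Gab3 (0.982), Cerk (0.977) and Lbh (0.977), which fell at 3 h, with differences of -0.41, -0.85, -0.68 and -1.40, after differences at 1 h from -0.11 to 0.02. Clec7a was nearest to Irf2 (0.945), Hdac9 (0.944), Plekha2 (0.942) and Dcaf17 (0.937). None of these 4 passed at 3 h, with differences from -0.25 to -0.17 and adjusted p from 0.0726 to 0.259 by limma.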

How the data were processed

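RNA of 12 samples of mouse bone marrow-derived macrophages was measured on Affymetrix whole-transcript arrays, in 4 groups of 3 taken from the sample titles. The authors deposited 1 log2 value for each of 25429 probe sets per array. RMA and Partek are named, without versions, per the submitters' processing notes. The log base was read from the range of the values, and no genome build is given in the sources used here. RMA background-corrects, quantile-normalizes and summarizes probes, so a shift shared by all genes would not show, and dim probes carry background. Entrez IDs were matched to the RefSeq gene table (GRCm38.p6), which named 24675 probe sets, 1 a gene, and left 754 unnamed and untested.

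A limma 3.58.1 model (lmFit, contrasts.fit and eBayes, under R 4.3.3) was fitted with 4 group means, 8 residual and 4.11 prior degrees of freedom, no filter, and Benjamini-Hochberg adjustment over all genes within each of 5 comparisons; genes passed at an adjusted p under 0.05. The number of arrays limits the precision. The receptor genes, gene lists and tests were chosen with earlier results of these data known. Named are the 9 receptors, up to 4 rises and 4 falls of the signalling and other lectin lists at each time, up to 3 of the pattern receptors in each direction at 3 h, and the 4 genes nearest in pattern to each of 5 receptors. Other settings tried were a trended and robust prior, the replicate number as a block, no moderation, genes above the median mean, renewed quantile normalization, median centring, all probe sets, only the groups compared, and each array left out in turn. Promoter sequences are from RefSeq, GRCm38.p6.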

Additional observations from a re-analysis of the deposited data

Results flagged for a closer look

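The effect of hepcidin at 3 h was set against its effect at 1 h by limma's interaction term with adjustment over all genes. The genes looked at were the receptors, those named by the rule from the lists, and the signalling genes named after their values were seen. The effect differed for Clec4e and 7 of the others, where 1.03% of all genes passed. Genes named for likeness of pattern, and others such as Cd14, were not looked at here. Of the 7, all but Syk were named by the size of their difference at 3 h. That difference is part of this term, so the count is no test. For Clec4e the effect was 1.06 larger at 3 h on the log2 scale (adjusted p 0.00932), for Tlr1 0.84 larger (0.00276), for Nfkb2 0.73 larger (0.0296), for Syk 0.70 larger (0.0231) and for Clec4a1 0.58 larger (0.0367). It was lower at 3 h for Inpp5d by -0.54 (0.00937), for Cblb by -0.53 (0.0373) and for Nfatc1 by -0.52 (0.0304). In Syk, Inpp5d, Cblb and Nfatc1 the effect at 1 h lay between -0.05 and 0.04, and in Clec4e and Nfkb2 it was already 1.41 and 0.98. The differences for Clec4e, Tlr1 and Inpp5d passed in all 19 alternatives run. Those for Nfkb2, Cblb, Nfatc1, Clec4a1 and Syk lost the threshold in 11, 12, 9, 13 and 9 of them. All 3 arrays of each group entered each test.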

How the results depend on the processing

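Over the 9 receptor genes and 5 comparisons, 820 of 886 alternative values kept their side of the threshold, 57 lost it, 9 gained it and none of the called values reversed. Of the uncalled values, 23 changed sign. Clec4e and, at 3 h, Clec5a and Mrc1 kept their calls against PBS in every alternative run. At 1 h the count of receptors called was 1 in place of 2 with the unmoderated model and with only the groups compared, and 1 to 2 with an array left out. At 3 h the count of 6 was 5 with the unmoderated model, 4 with median centring and 4 with only the groups compared. It ranged from 3 to 6 with an array left out, 3 being the value without PBS 3 h replicate 3. Between the PBS groups the count of 2 became 1 with the unmoderated model, 1 with median centring and 0 with only the groups compared, and ran from 0 to 2 with an array left out (0 without PBS 1 h replicate 2 or PBS 3 h replicate 3). Between the hepcidin groups the count of 4 was 6 with the trended and robust prior, 6 with genes above the median mean, 3 with the unmoderated model, 2 with only the groups compared and 2 to 4 with an array left out (2 without hepcidin 1 h replicate 1 or 2). For the difference between the effects, 2 receptors in place of 1 passed with the trended and robust prior, the unmoderated model and genes above the median mean, the added one being Mrc1. The causes were not tested.

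To look for pairing, each gene's group mean was first subtracted, and PBS arrays were compared with hepcidin arrays of the same time. What remained correlated between same-numbered arrays at 0.134, 0.111 and 0.0595 at 1 h and at 0.206, 0.153 and 0.0645 at 3 h. Each PBS array correlated best with the hepcidin array of its own number, a hint of pairing from the data and not the design. With the replicate number as a block the receptor counts were 2 at 1 h, 6 at 3 h, 2 between the PBS groups, 6 between the hepcidin groups (Clec4d and Clec7a added) and 1 for the difference, and all genes called numbered 163, 1615, 240, 1529 and 348.

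Over all genes, the 1316 calls at 3 h became 1690 with the trended and robust prior and 1727 with genes above the median mean. They became 805 with only the groups compared and 837 to 1287 with an array left out. The 111 between the PBS groups became 319 with the trended and robust prior, 333 with genes above the median mean, 64 with median centring, 7 with only the groups compared, and 23 to 126 with an array left out. The 1246 between the hepcidin groups became 1602 with the trended and robust prior and 1675 with genes above the median mean. They became 616 with only the groups compared and 721 to 1178 with an array left out. The 254 for the difference became 433 with the trended and robust prior, 412 with genes above the median mean, and 141 to 234 with an array left out. Clec10a drops out with genes above the median mean, and Clec4n and Clec10a lie near the array medians, which limits what can be said of them.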
